A study of Mus musculus with 6 samples.

Results

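The genes described here are 53 mouse genes of DNA replication and nucleotide synthesis, chosen by name for their function and measured in B cells of the spleen. Each gene was read through its brightest probe that passed a filter on dim probes, namely a value over the 40th percentile of the array on 3 or more of the 6 arrays. Of the 53 genes, 47 carried a probe and 43 were tested, out of 16110 genes with a probe and 10304 tested genes in all. Gins1, Gins2, Rfc3, Rfc5, Cad and Impdh2 carried no probe under these symbols and were not analysed here. Orc1, Pola1, Prim1 and Slbp had probes below the filter. The 43 tested genes all lay above the 40th percentile on all 6 arrays, so none of them was kept only through the group in which it was brighter. Nearest to the filter on the inside was Orc2, with a mean of 5.71 log2 units over the arrays. Nearest on the outside was Prim1, whose probe passed the percentile on 2 arrays.

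Splenic B cells of 2 kinds were compared, each on 3 Illumina bead arrays. The Control group held normal B cells, and the TRAF3KO group held premalignant B cells of genotype TRAF3-/-. TRAF3, an adaptor of TNF receptor family signalling, keeps the non-canonical NF-kB pathway low in resting B cells. The design asks what is altered in B cells without it. The sources used here give no strain or age of the mice, allele, or Cre driver. Nothing says that each array held a separate mouse, so p-values reflect only how much these samples vary, and part of that may be technical.

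The B cell label was borne out by its markers, since Cd79a and Cd79b, the signalling chains of the B cell receptor, had means of 15.99 and 16.07 log2 units in control, near the top of the scale at 16.15. Of 6 B cell markers tested, 0 were called by limma between the groups and 1 had an unadjusted p under 0.05. Sex, inferred from Xist and Eif2s3y, was male for replicates 1 and 3 of control and for replicate 1 of TRAF3KO, and female for the other 3 arrays. The groups were thus not balanced for sex. In RNA of a whole cell population, fewer cells of a type and less RNA per cell cannot be told apart.

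DNA replication starts with the loading of the MCM helicase at origins by the ORC complex, Cdc6 and Cdt1. After Cdc45 and the GINS complex have activated the helicase, polymerases copy the strands with the help of the PCNA clamp, its RFC loader and the RPA proteins that cover single-stranded DNA. The deoxynucleotides consumed come from ribonucleotide reductase, which reduces ribonucleotides, and from salvage of nucleosides, while purine and pyrimidine rings are built by separate de novo routes. Many of these genes are controlled by E2F factors and are transcribed as cells enter S phase, and most splenic B cells in a resting animal are not dividing.

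The largest difference among these genes was that of Tk1. This cytosolic thymidine kinase rose 3.25-fold in TRAF3KO cells (95% interval 2.72 to 3.90) and Tyms, thymidylate synthase, rose 1.86-fold (1.36 to 2.56). Gart, an enzyme of purine synthesis, rose 1.33-fold (1.15 to 1.53). Samhd1, which breaks deoxynucleotide triphosphates down, fell to 0.754 of its control level (0.650 to 0.874). Thus 3 of 43 genes were called higher and 1 lower (9.3% called) at an adjusted p under 0.05, by limma with Benjamini-Hochberg adjustment over all kept probes, against 4.44% called of all 10304 genes (2.3% higher and 2.14% lower). The groups did not overlap for 12 of the 43 genes (27.9%), 9 of them higher and 3 lower in TRAF3KO, against 22.4% of all genes. The median difference of the 43 genes was 0.09 log2 units and 30 of them (69.8%) lay above 0, against a median of 0.0042 with 50.7% above 0 and 49.3% below for all genes. For 35 of the 43 genes the 95% interval lay within a 2-fold change either way, against 62.5% of all genes.

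The calls of Tyms, Gart and Samhd1 depended on single arrays and on the variance model. Tk1 alone was called when replicate 1 or 3 of control or replicate 2 of TRAF3KO was dropped, and Tk1 and Samhd1 without TRAF3KO replicate 1. Blocking by inferred sex, dropping the filter, dropping the trend in the variance model and averaging a gene's probes each left only Tk1 called. Without control replicate 2 the called genes were Gart, Tk1, Uhrf1 and Tyms, and without TRAF3KO replicate 3 they were Gart, Tk1 and Uhrf1.

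**Figure D1:**
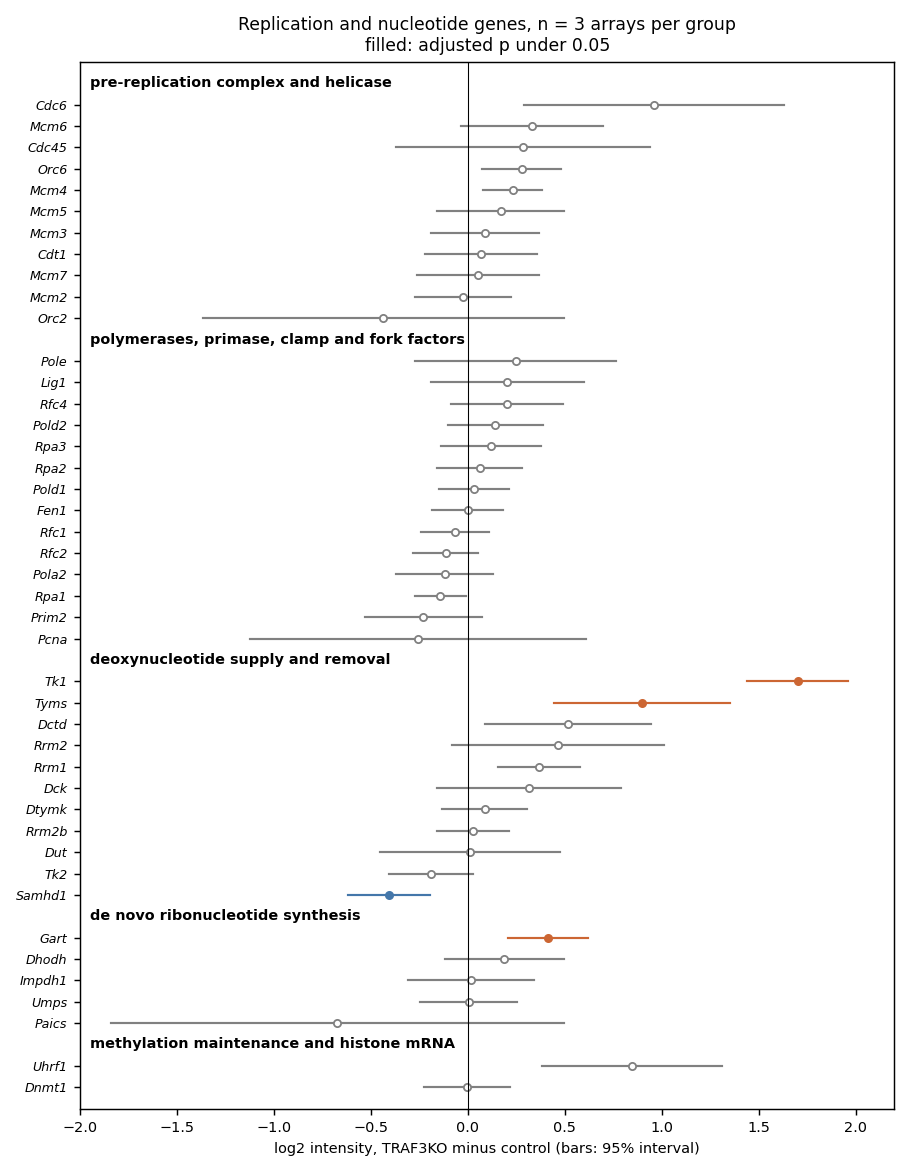
Difference in log2 intensity between TRAF3KO and control (horizontal axis) for the 43 tested genes, grouped by role, with 95% intervals from limma, 3 arrays per group. Filled points passed an adjusted p under 0.05: Tk1 lies at 1.70, Tyms at 0.90, Gart at 0.41 and Samhd1 at -0.41, while most polymerase and fork genes lie close to 0.

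Among the 11 genes of deoxynucleotide supply and removal, 2 were called higher and 1 lower, against 2.3% and 2.14% of all genes. The groups did not overlap for 5 higher and 1 lower, against 11% and 11.4% of all genes. The median difference was 0.32 log2 units. Tk1 read 9.88, 10.28 and 9.82 log2 units on the control arrays and 11.71, 11.68 and 11.69 on the TRAF3KO arrays. All TRAF3KO arrays lay more than 1 log2 unit above the highest control array, and they differed among themselves by far less than the controls did. The mean went from 9.99 ± 0.25 to 11.69 ± 0.01 (SD, n = 3), a difference of 1.70 ± 0.12 (SE, adjusted p = 2.7e-05 by limma), which ranked 10th of 10304 genes by p. The gene's other probes, both dimmer, gave 2.16 ± 0.28 and 1.74 ± 0.38, so all 3 probes were called, with no overlap of the groups on any. The call of Tk1 held in 18 of 19 alternative settings, with differences from 1.61 to 1.87, and was missed by an unmoderated linear model (adjusted p = 0.055).

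Tyms, which methylates dUMP to dTMP and is thus the other entry to thymidylate, read 8.38, 9.31 and 8.60 in control and 9.62, 9.74 and 9.63 in TRAF3KO. Control replicate 2 lay nearest to the TRAF3KO arrays, which were tightly grouped, and the groups did not overlap. The difference was 0.90 ± 0.21 (SE, adjusted p = 0.036 by limma). Of the 3 other kept probes, none was called, and they gave 1.75 ± 0.50, 0.27 ± 0.48 and -0.12 ± 0.39, so the probes of Tyms disagreed. Dropping single arrays ended the call in 5 of 6 cases, and the adjusted p ran from 0.0027 to 0.33 over the 19 alternatives.

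Dctd, the deaminase that makes dUMP from dCMP, read 8.08, 7.99 and 7.51 in control and 8.44, 8.50 and 8.19 in TRAF3KO. The groups did not overlap, but the difference of 0.52 ± 0.19 (SE) did not pass (adjusted p = 0.21 by limma). Dut, which makes dUMP from dUTP, and Dtymk, the kinase that phosphorylates dTMP further, differed by 0.01 ± 0.21 and 0.09 ± 0.10 and had overlapping groups. The interval of Dtymk ran from -0.13 to 0.31, so a difference of the size of Tk1 lies outside it. Tk2, the mitochondrial thymidine kinase, differed by -0.19 ± 0.10, with an interval of -0.41 to 0.03.

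Ribonucleotide reductase is made of a large subunit, Rrm1, and a small subunit, Rrm2 in S phase or Rrm2b outside it. Rrm1 read 10.43, 10.52 and 10.69 in control and 10.97, 10.91 and 10.85 in TRAF3KO, with no overlap. Its difference of 0.36 ± 0.10 (SE) missed the threshold (adjusted p = 0.066 by limma). Of 19 alternatives only robust eBayes called Rrm1 (adjusted p = 0.043). The other 18 did not, among them the sex block and each fit with an array dropped. Rrm2 read 6.58, 6.83 and 6.51 against 7.19, 7.20 and 6.94. These groups did not overlap either, but the difference of 0.47 ± 0.25 (SE) did not pass (adjusted p = 0.40 by limma), and its second, dimmer probe gave -0.27 ± 0.74. For Rrm2b the difference was 0.03 ± 0.08 with an interval of -0.16 to 0.21.

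Dck, the deoxycytidine kinase of nucleoside salvage, read 7.85, 7.35 and 8.13 in control and 8.19, 8.03 and 8.06 in TRAF3KO. Control replicate 3 overlapped the TRAF3KO arrays, and the difference of 0.32 ± 0.21 (SE) did not pass (adjusted p = 0.52 by limma). Samhd1, the triphosphohydrolase that limits deoxynucleotide pools outside S phase, read 13.73, 13.68 and 13.91 in control and 13.53, 13.17 and 13.40 in TRAF3KO. Every TRAF3KO array was below every control array, TRAF3KO replicate 2 most of all. The difference was -0.41 ± 0.10 (SE, adjusted p = 0.042 by limma). A second, dimmer probe gave -1.13 ± 0.58 with overlapping groups and was not called. Dropping single arrays ended the call of Samhd1 in 5 of 6 cases, and the mean of its probes gave -0.77, not called.

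**Figure D2:**
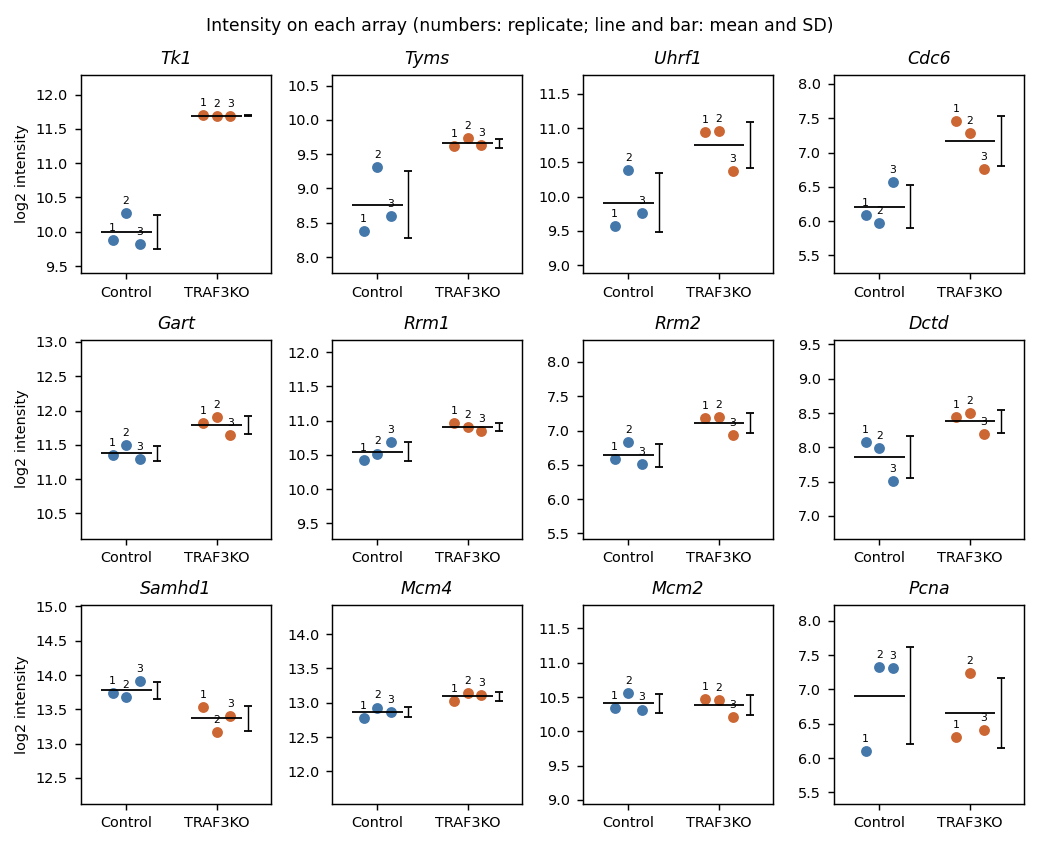
Log2 intensity on each array for 12 genes, with replicate numbers beside the points, the group mean as a line and the SD as a bar, 3 arrays per group. All panels span the same number of log2 units. Tk1 has the widest gap between groups, the groups of Mcm2 and Pcna overlap, and control replicate 2 is the highest control for Tk1, Tyms and Uhrf1.

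**Figure D3:**
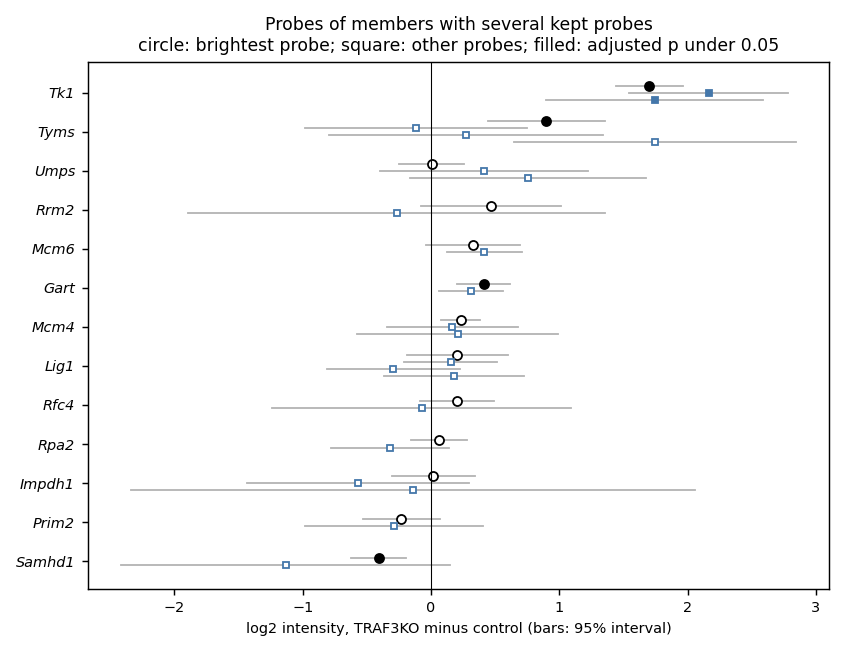
Difference in log2 intensity between TRAF3KO and control for every kept probe of the 13 genes with several kept probes, with 95% intervals. Circles are the brightest probes and filled marks passed an adjusted p under 0.05. The 3 probes of Tk1 all lie between 1.70 and 2.16, whereas the 4 probes of Tyms run from -0.12 to 1.75.

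The promoters of the 4 called genes are shown because these passed the test, in the start-proximal windows that RefSeq gives on GRCm38.p6. Each window runs from 250 bases before the annotated start to 50 bases after it, 5′ to 3′ on the strand of the gene, and all 4 genes lie on the minus strand. The windows are chr11:117825965-117826264 for Tk1, chr5:30073576-30073875 for Tyms, chr16:91646923-91647222 for Gart and chr2:157135047-157135346 for Samhd1. Capitals mark matches, on either strand, to an E2F-type motif, TTTNNCGC, or to a CCAAT box; no matches of these motifs overlapped each other in these windows.
Tk1: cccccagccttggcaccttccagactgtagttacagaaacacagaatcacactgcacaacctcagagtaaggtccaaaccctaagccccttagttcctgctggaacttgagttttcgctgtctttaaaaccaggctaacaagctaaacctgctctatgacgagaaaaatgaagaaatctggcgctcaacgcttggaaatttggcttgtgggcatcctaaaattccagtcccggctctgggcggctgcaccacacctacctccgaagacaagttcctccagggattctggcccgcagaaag
Tyms: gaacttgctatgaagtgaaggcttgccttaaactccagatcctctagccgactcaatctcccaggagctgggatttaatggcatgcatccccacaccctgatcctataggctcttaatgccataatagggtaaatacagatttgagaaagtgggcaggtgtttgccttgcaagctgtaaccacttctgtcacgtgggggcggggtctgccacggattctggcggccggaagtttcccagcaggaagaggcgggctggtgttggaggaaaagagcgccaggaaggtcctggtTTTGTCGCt
Gart: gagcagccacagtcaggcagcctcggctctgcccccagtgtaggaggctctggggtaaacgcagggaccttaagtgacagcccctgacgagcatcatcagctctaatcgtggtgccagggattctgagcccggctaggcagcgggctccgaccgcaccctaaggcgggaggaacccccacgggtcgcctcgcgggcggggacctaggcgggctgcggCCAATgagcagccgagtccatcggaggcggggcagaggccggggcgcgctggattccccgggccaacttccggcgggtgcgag
Samhd1: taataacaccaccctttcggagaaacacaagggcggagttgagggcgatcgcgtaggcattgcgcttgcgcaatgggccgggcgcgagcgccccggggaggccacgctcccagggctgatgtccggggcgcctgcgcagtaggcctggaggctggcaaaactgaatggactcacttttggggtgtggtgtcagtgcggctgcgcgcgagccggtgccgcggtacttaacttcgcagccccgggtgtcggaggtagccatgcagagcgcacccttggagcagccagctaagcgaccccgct
Tyms holds 1 match to TTTNNCGC, whose first base lies at position 42 after the start, and Gart holds 1 CCAAT box, whose first base lies 33 bases before the start. The windows of Tk1 and Samhd1 hold neither string of letters. In the whole table TTTNNCGC occurs in 5.17% of 32851 windows and CCAAT in 37.4%. Of the 53 genes, 45 matched the table, with 57 windows, of which 15 (26.3%) hold TTTNNCGC and 33 (57.9%) hold CCAAT. Mcm4, Gins1, Gins2, Prim2, Pole, Rfc2, Rrm2b and Dhodh had no entry. These matches describe the letters and not binding.

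In de novo ribonucleotide synthesis, 1 of 5 tested genes was called higher, against 2.3% of all genes. The groups did not overlap for 1 of the 5, higher in TRAF3KO, against 11% of all genes. A list of 5 genes is too short to compare with these shares. The called gene was Gart, a trifunctional enzyme of the purine route. It read 11.35, 11.49 and 11.29 in control and 11.82, 11.91 and 11.64 in TRAF3KO. The groups did not overlap, and the difference was 0.41 ± 0.09 (SE, adjusted p = 0.035 by limma). A second probe of Gart, with readings of 10.05, 10.20 and 9.97 against 10.56, 10.34 and 10.25, also separated the groups, at 0.31 ± 0.11 (adjusted p = 0.19). Dropping single arrays ended the call of the brighter probe in 4 of 6 cases. Paics, which acts after Gart in the same route, differed by -0.67 ± 0.53, Impdh1, the entry to guanine nucleotides, by 0.02 ± 0.15, and the pyrimidine enzymes Umps and Dhodh by 0.0036 ± 0.11 and 0.19 ± 0.14. None of these 4 passed (adjusted p 0.56 to 0.99), and TRAF3KO replicate 2 was far below the other arrays for Paics, at 4.54 against 5.99 to 7.06.

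Origin licensing and the helicase had 0 of 11 genes called by limma, against 4.44% of all genes. The groups did not overlap for 3 of the 11 (27.3%), all higher in TRAF3KO, against 22.4% of all genes (11% higher). Those 3, Mcm4, Orc6 and Cdc6, also had an unadjusted p under 0.05 by limma. Of all 10304 genes 1741 had such a p, and of the 43 genes 11. The median difference was 0.17 log2 units. Cdc6, which loads the helicase together with ORC, read 6.08, 5.98 and 6.57 in control and 7.46, 7.28 and 6.76 in TRAF3KO. TRAF3KO replicate 3 was close to control replicate 3, and the groups did not overlap. The difference was 0.96 ± 0.30 (SE, adjusted p = 0.13 by limma), larger than that of Tyms but with a wider error.

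Mcm4, a helicase subunit, read 12.78, 12.93 and 12.87 in control and 13.02, 13.14 and 13.11 in TRAF3KO. Orc6, a subunit of the origin recognition complex, read 10.79, 10.94 and 10.73 against 11.20, 11.06 and 11.04. Neither gene had overlapping groups, but the differences were small, 0.23 ± 0.07 and 0.28 ± 0.09 (SE, adjusted p = 0.11 and 0.15 by limma). All 3 kept probes of Mcm4 lay above 0, at 0.16 to 0.23.

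Mcm5 read 11.64, 12.17 and 11.47 in control and 12.02, 11.90 and 11.86 in TRAF3KO, so control replicate 2 was above all TRAF3KO arrays. Its difference was 0.17 ± 0.15 (SE, adjusted p = 0.63 by limma). Mcm2 read 10.34, 10.56 and 10.32 against 10.48, 10.46 and 10.21, with overlapping groups and a difference of -0.03 ± 0.11 (interval -0.27 to 0.22). Cdt1, the other helicase loader, read 11.54, 11.68 and 11.72 against 11.86, 11.37 and 11.91, and its TRAF3KO arrays enclosed the controls (0.07 ± 0.13, interval -0.22 to 0.35). The signs of Mcm2 and Cdt1 turned when 1 array was left out. The remaining genes, Mcm3, Mcm6, Mcm7, Orc2 and Cdc45, differed by -0.44 to 0.33 (adjusted p 0.37 to 0.90). Mcm6 was the highest of them, and both its kept probes lay above 0, at 0.33 and 0.42.

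Polymerases, primase, the clamp and other fork factors had 0 of 14 genes called by limma, against 4.44% of all genes. At an unadjusted p under 0.05 was 1 of the 14, Rpa1, against 1741 of all 10304 genes. The groups did not overlap for 2 of the 14 (14.3%), lower in TRAF3KO, against 22.4% of all genes. The median difference of the 14 genes was 0.01 log2 units, with 7 genes above 0 and 7 below. For 13 of the 14 the 95% interval lay within a 2-fold change either way, against 62.5% of all genes. Rpa1, the large subunit of the single-strand binding protein, read 13.87, 13.90 and 13.94 in control and 13.78, 13.80 and 13.71 in TRAF3KO. The groups did not overlap, at a difference of only -0.14 ± 0.06 (SE, adjusted p = 0.26 by limma). Prim2, the large primase subunit, read 9.04, 8.81 and 8.83 against 8.77, 8.58 and 8.64, again with no overlap and no call (-0.23 ± 0.14, adjusted p = 0.45 by limma).

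Pcna, the sliding clamp, read 6.10, 7.33 and 7.31 in control and 6.31, 7.24 and 6.41 in TRAF3KO. Both groups held high and low arrays, and the difference of -0.26 ± 0.39 (SE, interval -1.12 to 0.61) was wide, so smaller changes could not be detected with these arrays. The SD of Pcna in control, 0.71, was the highest of the 43 genes, against a median of 0.15. The other 11 genes (Pola2, Pold1, Pold2, Pole, Rfc1, Rfc2, Rfc4, Rpa2, Rpa3, Fen1 and Lig1) differed by -0.12 to 0.25, with adjusted p from 0.50 to 1.00. For Fen1, the flap endonuclease that trims lagging strand fragments, the interval ran from -0.19 to 0.18, and for Pold1, the catalytic subunit of polymerase delta, from -0.15 to 0.21.

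Uhrf1 and Dnmt1 copy DNA methylation onto the new strand, Uhrf1 by binding hemimethylated sites and Dnmt1 as the methyltransferase. Uhrf1 read 9.58, 10.40 and 9.76 in control and 10.94, 10.95 and 10.37 in TRAF3KO. Control replicate 2 and TRAF3KO replicate 3 met in the middle, so the groups overlapped by a small margin. The difference of 0.85 ± 0.21 (SE) missed the threshold narrowly (adjusted p = 0.051 by limma) and passed in 8 of 19 alternatives, among them the fits without control replicate 2 and without TRAF3KO replicate 3. It did not pass when blocked by inferred sex. Dnmt1 read 10.09, 10.02 and 10.08 against 10.12, 9.93 and 10.13, and its interval ran from -0.23 to 0.22.

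**Figure D4:**
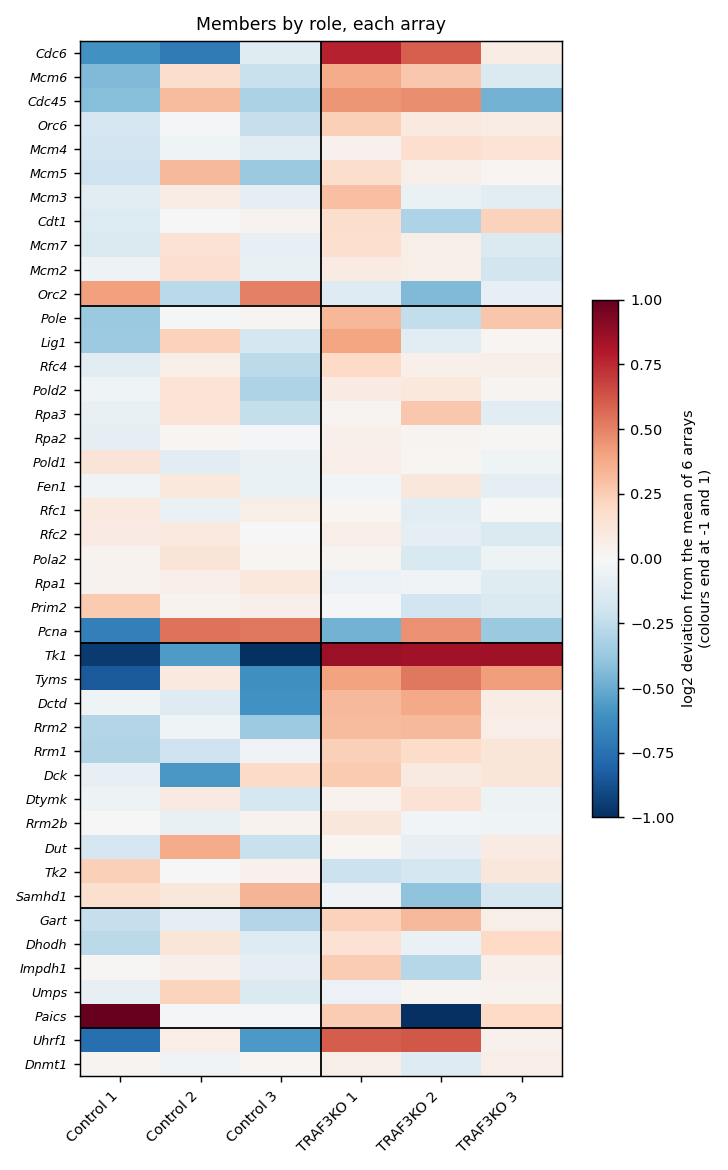
Deviation of each array from the mean of the 6 arrays (log2 units, colour) for the 43 tested genes in rows, grouped by role, and the arrays in columns. The deoxynucleotide genes Tk1, Tyms, Dctd, Rrm2 and Rrm1 are high on all TRAF3KO arrays, and control replicate 2 is the highest control array for 27 of the 43 genes.

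The arrays of a group did not stand alike in these genes. Control replicate 2 was the highest control array for 27 of the 43 genes (62.8%), against 34.2% of all tested genes. TRAF3KO replicate 3 was the lowest TRAF3KO array for 22 of the 43 (51.2%), against 33.1% of all genes, and TRAF3KO replicate 1 the highest for 23 (53.5%, against 34.5%). The median deviation of the 43 genes from their 6-array means was -0.09, 0.06 and -0.09 on the control arrays. On the TRAF3KO arrays it was 0.14, 0.05 and 0.02, so control replicate 2 lay above TRAF3KO replicates 2 and 3. Over all tested genes this median was 0.01 to 0.02 on every array. For the 11 deoxynucleotide genes it was -0.09, -0.05 and -0.17 against 0.24, 0.15 and 0.08, with every TRAF3KO array above every control array. Without control replicate 2 the median difference of the 43 genes was 0.15, and without control replicate 3 it was 0.03.

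Markers of dividing cells and of other cell types were measured on the same arrays. Of the 14 mitotic markers 8 were tested, 7 of them above 0 (50.7% of all genes were) with a median of 0.49. The groups did not overlap for Kif11 and Nusap1, spindle proteins that differed by 0.96 ± 0.31 and 0.95 ± 0.25 without a call (adjusted p = 0.14 and 0.070 by limma). Only Cenpa, a centromere histone, was called, and it fell by 0.42 on the log2 scale. The summed intensity of the list was 13202 to 15178 in control and 10286 to 13015 in TRAF3KO, but Cenpa alone made up 77.3% to 91.1% of it. Without Cenpa the sum was 1344 to 2329 in control and 1811 to 2762 in TRAF3KO, with overlap. Ccnb2 and Bub1 lay at the floor on all arrays. Erythroid markers lay below 0 for 7 of 7 tested genes (median -0.87), against 49.3% of all genes, though Epor differed by only -0.0074 ± 0.46. Car2, a carbonic anhydrase, was called lower. Their summed intensity was 76861 to 80221 in control and 63099 to 77383 in TRAF3KO, of which Hba-a1, a globin near the top of the scale, made up 88.9% to 98.0%. Without Hba-a1 the sum was 5502 to 8879 in control and 1260 to 6170 in TRAF3KO. Monocyte and macrophage markers lay below 0 for 4 of 5 (Lyz2 and C1qc called lower), with sums of 1811 to 5039 and 1199 to 2032. Of the plasma cell markers, Sdc1, a surface proteoglycan, fell by 2.22 on the log2 scale (adjusted p = 2.4e-04 by limma). Xbp1, a transcription factor of secretory cells, rose by 0.48 ± 0.08 (adjusted p = 0.0094), and Jchain differed by -0.03 ± 0.59. The plasma cell sum was 4966 to 5218 in control and 6184 to 7554 in TRAF3KO, nearly all of it Xbp1. Without Xbp1 that sum went the other way, at 393 to 411 in control and 107 to 170 in TRAF3KO, with no overlap. T cell markers summed to 90.5 to 178 and 71.6 to 131 with Cd8a at the floor on all arrays, NK cell markers to 2360 to 3752 and 2696 to 3299 with Ncr1 at the floor, and neutrophil markers to 63.5 to 310 and 24.3 to 98.1. Prf1 alone made up 98.2% to 99.5% of the NK cell sum. Without Prf1 that sum was 16.2 to 40.5 in control and 22.3 to 56.1 in TRAF3KO. None of these last 3 lists held a called gene. The part of these cells in the differences above was not tested.

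Beyond the 53 genes, 110 other genes of the same pathways were followed, of which 82 were tested, 7 called higher and 1 lower (9.76% called, against 4.44% of all genes). Of the 8 called genes, 5 belong to purine synthesis and salvage (15 tested) or to pyrimidine and folate metabolism (16 tested). The groups did not overlap for 20 genes higher and 5 lower of the 82 (30.5%, against 22.4% of all genes). The 8 called genes were among these. Mthfd1, the trifunctional folate enzyme that makes one-carbon units for purines and thymidylate, read 10.69, 11.03 and 10.79 in control and 11.88, 11.67 and 11.80 in TRAF3KO. It rose by 0.95 ± 0.10 (SE, adjusted p = 5.9e-04 by limma) and stayed called whichever single array was dropped and when blocked by inferred sex. Mthfd1 was called in 16 of 19 alternatives. Its call was lost with no filter, without a trend in the variance model and by the unmoderated linear model. Shmt2, the mitochondrial serine hydroxymethyltransferase that feeds the same one-carbon pool, rose by 0.49 ± 0.12, from 9.04 ± 0.10 to 9.53 ± 0.08 (SD, n = 3). Dropping any single array ended this call, as did the block by inferred sex (adjusted p = 0.097), and the mean of its probes gave 0.14. Shmt1, its cytosolic counterpart, differed by 0.73 ± 0.27 and Nt5e, a surface nucleotidase, by 0.59 ± 0.51, neither called.

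Purine synthesis and salvage had 3 of 15 genes called higher and none lower, against 2.3% and 2.14% of all genes. Of the 15, 13 lay above 0 (50.7% of all genes did), with a median of 0.20. Prps2, which makes the ribose phosphate donor, rose by 0.42 ± 0.10, Atic, which closes the purine ring, by 0.39 ± 0.09, and the nucleoside diphosphate kinase Nme1 by 0.42 ± 0.10. These calls were weak, at adjusted p of 0.038, 0.048 and 0.037 by limma. With single arrays dropped, Prps2 was called in 0 of 6 fits by limma, and Atic and Nme1 in 1 each. None of the 3 calls held when blocked by inferred sex (adjusted p 0.059 to 0.10). Ppat, which starts the route, differed by 0.41 ± 0.14 and the adenosine kinase Adk by 0.38 ± 0.16 (not called). Adsl, a lyase that acts between Paics and Atic, differed by 0.14 ± 0.10, and was not called.

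Among 16 S phase regulators, 1 was called higher and 1 lower (12.5% called, against 4.44% of all genes). The groups did not overlap for 4 higher and 2 lower of the 16 (37.5%, against 22.4% of all genes). The called genes, Tfdp1 and Tfdp2, are the DNA-binding partners of the E2F factors and went in opposite directions. Tfdp1 read 10.02, 10.20 and 10.13 in control and 10.80, 10.84 and 10.56 in TRAF3KO, a rise of 0.61 ± 0.11 (SE, adjusted p = 0.0084 by limma) called whichever array was dropped and with the sex block (adjusted p = 0.023). The call of Tfdp1 was lost with no filter, without a trend in the variance model and by the unmoderated linear model. Tfdp2 read 8.22, 8.01 and 8.19 against 7.15, 7.40 and 7.06 and fell by 0.93 ± 0.19 (adjusted p = 0.021), a call made in 2 of 6 fits with an array dropped, and not with the sex block (adjusted p = 0.053), while the mean of its probes gave -0.62. Neither gene had overlapping groups. Ccne2, an S phase cyclin, and Hells, a chromatin remodeller, differed by 2.41 ± 1.48 and -0.85 ± 1.67 with arrays at the floor, and were not called.

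Of 13 genes of origin licensing and firing, 1 was called (7.69%, against 4.44% of all genes), the kinase Cdc7, which fires loaded origins. It rose by 0.47 ± 0.09 (SE, adjusted p = 0.018 by limma), from 10.59 ± 0.11 to 11.07 ± 0.08 (SD, n = 3). With single arrays dropped it was called in 3 of 6 fits, and it was called with the sex block (adjusted p = 0.031). Dropping the filter, dropping the trend in the variance model and the unmoderated linear model each ended this call. Mcm10, which helps to activate the helicase, read 6.82, 7.65 and 7.35 against 8.79, 8.65 and 7.83, and its difference of 1.15 ± 0.29 missed the threshold (adjusted p = 0.052). Mcm9 differed by -0.59 ± 0.38. The fork and chromatin assembly list had a median of 0.02 and 0 of 22 genes called by limma, against 4.44% of all genes. At an unadjusted p under 0.05 were 2 of the 22, against 1741 of all 10304 genes. Top2a, a topoisomerase of dividing cells, differed by 0.64 ± 0.28 and Top2b, its counterpart in resting cells, by -0.55 ± 0.36.

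**Figure D5:**
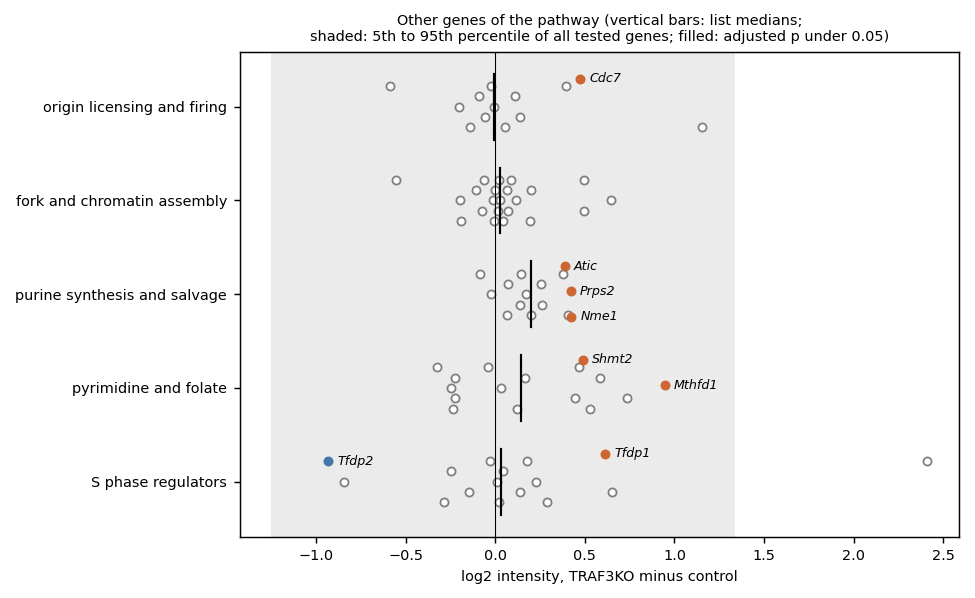
Difference in log2 intensity between TRAF3KO and control (horizontal axis) for 82 other genes of replication, nucleotide and folate metabolism and S phase control, by list, with list medians as vertical bars and the 5th to 95th percentile of all tested genes shaded. Filled points passed an adjusted p under 0.05: Mthfd1 at 0.95, Tfdp1 at 0.61, Shmt2 at 0.49, Cdc7 at 0.47, Prps2, Nme1 and Atic near 0.4, and Tfdp2 at -0.93.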

How the data were processed

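RNA of mouse splenic B cells was hybridised as biotin-labelled cRNA to 6 single-colour Illumina bead arrays, 3 Control and 3 TRAF3KO, grouped by the sample titles. The authors deposited 1 table of log2 intensity values for 25697 probes. Its array medians differ by at most 0.0071, and 31.3% to 31.4% of the values on each array lie at a floor of 0. Per the submitters' processing notes BeadStudio 3.2.3 was used, in a role not stated. The sources used here do not give the background correction, the normalization or the origin of the floor. Precision is limited by the number of arrays.

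Gene names came from GEO's annotation of the platform (23141 with 1 symbol, 2556 unnamed here). The values were used as deposited. The 15657 probes that passed the filter entered 1 model in limma (version 3.58.1, R 4.3.3), with group as the only term and eBayes with a trend. Benjamini-Hochberg adjustment ran over all of them, with calls at an adjusted p under 0.05. Differences are log2 TRAF3KO minus control with the moderated SE. The procedure was tested on simulated data in which the spread of a probe was set by its mean intensity. A trend in the variance model assumes the same, so that test could not check the choice of variance model. The members, lists, rules and alternatives were chosen with earlier results of these data known. Values on every array are given for called genes, for up to 12 others whose groups do not overlap and for 15 genes set by name where tested, and other genes by range. Adsl was added to the named genes after its value was seen. Of the other pathway genes, those called and up to 2 uncalled per list, by largest difference, are named. Alternatives were other filters, normalization, variance models, array weights, offsets, the mean of the probes, blocks by replicate number or inferred sex, and leaving out each array. Promoter windows are those of RefSeq on GRCm38.p6.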

Additional observations from a re-analysis of the deposited data

How the results depend on the processing

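The count of 4 called replication and nucleotide genes was 1 with no filter on dim probes, without a trend in the variance model, with the mean of a gene's probes and with inferred sex as a block. It was 0 by an unmoderated linear model, where 10 had an unadjusted p under 0.05. It ran from 1 to 4 when 1 array was left out. The count over all genes, 457, was 114 with no filter, 65 without a trend and 37 by the unmoderated model, and 227 to 382 when 1 array was left out. For the other pathway genes the count of 8 was 0 with no filter, 0 without a trend and 0 by the unmoderated model (20, 16 and 17 at an unadjusted p under 0.05, by limma for the first pair). It was 4 with the mean of the probes, 3 with inferred sex as a block and 2 to 7 when 1 array was left out. Quantile normalization, array weights, offsets of 16 and 50, robust eBayes, the stricter filter and raising low values left each of these counts within 1.5 times. Signs turned only for genes near 0 among those given on every array: with 1 array left out Mcm2 ran from -0.075 to 0.060 (above 0 without control replicate 2 or TRAF3KO replicate 3), Cdt1 from -0.034 to 0.237 (below 0 without TRAF3KO replicate 1 or 3) and Dnmt1 from -0.038 to 0.061, and Dnmt1 was 0.022 with inferred sex as a block. The causes were not tested.

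Same-numbered arrays of the groups are not said to be paired. The deviations of their probes from the group means correlated at 0.044, 0.043 and 0.03, each array best with its own number. These correlations are small, and deviations within a group are not independent of each other, so no pairing can be read from them. With the replicate number as a block 5 replication and nucleotide genes, 6 other pathway genes and 468 genes in all were called. The number of arrays limits what could be detected, as does the floor for dim probes.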
